A study of Mus musculus with 6 samples.

Results

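Transcripts of Dlx1, Dlx2, Dlx3, Dlx4, Dlx5, Dlx6, Msx1, Msx2, Pax9 and Barx1, the transcription factors that pattern the tooth-forming jaw, were read in the apical furcation tissue of the mouse first molar with and without Lhx6. These 10 genes were taken by name from a table of 23594 genes, and all 10 passed the expression filter, as did 20114 genes in all. The tissue was cut by laser capture, in which chosen areas are dissected from a section under a microscope, from mandibular first molars of C57BL/6 mice aged 4.5 days. There were 3 control libraries, whose mice are labelled wild type and were littermates of the mutants, and 3 Lhx6-/- libraries. The Lhx6-/- mice were homozygous for the Lhx6-CreER allele, a germline knock-in that removes Lhx6 function, so each mutant cell also carries the CreER cassette. Each library pooled tissue of 8 molars, and p-values therefore measure the spread between pools and not between single animals. Fewer cells of a type and less RNA per cell cannot be told apart in such bulk tissue.

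Dlx, Msx and Barx proteins are homeodomain factors, and Pax9 binds DNA through a paired domain. Dlx genes lie in the genome as linked, convergently transcribed pairs that share enhancers, and their nested expression along the jaw separates proximal from distal and upper from lower identity. Msx1 and Pax9 act together in dental mesenchyme to keep Bmp4 on, and loss of either arrests the tooth germ, while Barx1 marks mesenchyme of the molar field. Lhx6 is a LIM homeodomain factor of the same oral mesenchyme.

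The libraries held 60132323 to 76157433 estimated counts, of which the 4 most abundant genes took 28.6% to 31.6%, and each of the 10 genes had between 1096 and 15460 counts in every library. Levels are given in CPM, the usual scale on which each library total is set to the same size, here with TMM factors. Lhx6 itself averaged 22.6 ± 4.83 CPM in the control and 11 ± 1.57 CPM in the Lhx6-/- libraries (SD, n = 3 each). The groups did not overlap (log2 fold change -1.04, adjusted p = 0.021 in edgeR after Benjamini-Hochberg correction). Some markers of the other tissues that the cut could hold differed between the groups. All 12 dental epithelium markers were on the lower side in Lhx6-/- libraries, with a summed level of 1017 to 1191 CPM against 1396 to 2218 CPM in control. The 6 erythroid markers summed to 1592 to 2329 CPM against 2969 to 3701 CPM, and the 6 endothelial markers to 270 to 316 CPM against 233 to 244 CPM. The 7 odontoblast markers, with Bmp2 among them, summed to 6549 to 7208 CPM against 5380 to 5887 CPM. Of these 7, 5 were on the higher and 2 on the lower side, with a median log2 fold change of 0.09. The summed levels of the groups overlapped for the 7 ameloblast, 7 osteoblast, 7 follicle and ligament, 6 leukocyte, 6 nerve and glia and 6 muscle markers. The ameloblast sum was 114978 to 146335 CPM against 135551 to 145307 CPM. Of the 7 ameloblast markers 6 were on the lower side, 1 of them at an adjusted p under 0.05 (edgeR). The 4 Y-linked genes, which follow the share of males in a pool, summed to 55.1 to 92.1 CPM against 14.6 to 58 CPM. The 10 dental mesenchyme markers summed to 78266 to 85515 CPM in Lhx6-/- and 66136 to 86631 CPM in control libraries, below the ameloblast sum in every library. Lhx6 and Osr2, both on the list, averaged 22.6 and 17.5 CPM in control. The sum thus rests on other genes of the list and cannot show how much dental mesenchyme was cut. It also hides single genes, since 7 of the 10 markers did not overlap between the groups. Of the 10, 8 were on the higher and 2 on the lower side in Lhx6-/- libraries. No marker of any list was at 0. The part of these differences in the results on Dlx, Msx, Pax9 and Barx1 was not tested. Fits with the epithelial or the Y-linked level as a covariate were run, and their values stand beside the genes they move. Both levels differ between the genotypes, the epithelial one without overlap. Such fits therefore cannot tell tissue makeup or sex apart from genotype.

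Scaled by exon length, the 10 transcripts spanned a wide range of levels in control tissue. Dlx3, a factor of differentiating odontoblasts and ameloblasts, was the highest at 76.3 ± 4.45 CPM per kb of exon (SD, n = 3), followed by Barx1 at 53.7 ± 10.8, Dlx5 at 33.4 ± 2.19 and Msx1 at 30.2 ± 1.7 CPM per kb. Msx2 stood at 23.2 ± 0.865, Dlx6 at 19.1 ± 0.846 and Dlx2 at 15.9 ± 0.949 CPM per kb. The lowest were Dlx4 at 10.8 ± 0.833, Dlx1 at 5.84 ± 0.638 and Pax9 at 3.8 ± 0.49 CPM per kb. Of neighbours in this order, only Dlx5 and Msx1 overlapped among the control libraries. In Lhx6-/- libraries the order was the same except that Dlx6, at 20.8 ± 0.474, stood above Msx2, at 19.7 ± 1.54 CPM per kb, and these 2 genes overlapped. Pax9, which with Msx1 sustains Bmp4 at the earlier bud stage, was thus the least abundant of the 10 transcripts in both groups. The length is the union of all annotated exons, 5.396 kb for Dlx1 and 2.855 kb for Dlx2. Levels, ratios and shares per kb depend on it, and which annotated transcripts the tissue makes was not tested. The control means in CPM were also lowest for Dlx4 (35.2), Dlx1 (31.5) and Pax9 (19.2).

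**Figure D1:**
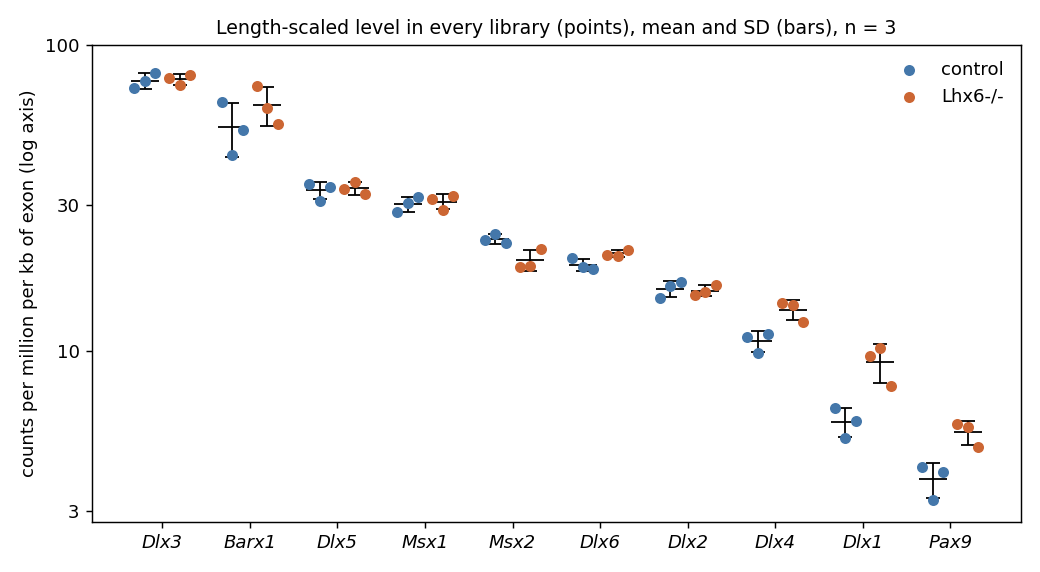
Level of the 10 genes in CPM per kb of exon, on a log axis, in order of the control mean. Points are libraries, bars the mean and SD of 3 libraries per group. Dlx3 stood highest in both groups (76.3 and 77.1) and Pax9 lowest (3.8 and 5.4).

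Of the 10 genes, 1 rose and none fell by the rule of an at least 1.5-fold change with an unadjusted p under 0.05, which 3.28% of all tested genes met (1.58% higher, 1.71% lower). The gene that rose was Dlx1. At an adjusted p under 0.05 it was again 1 of 10, against 0.403% of all genes (0.323% higher, 0.0795% lower). Without a minimum fold, 4 of 10 had an unadjusted p under 0.05 (Dlx1, Dlx4 and Pax9 higher, Msx2 lower), against 9.81% of all tested genes (4.75% higher, 5.07% lower). The dental epithelium level itself separates the groups. With it as a covariate only Dlx1 of these 4 kept an unadjusted p under 0.05 (0.0165, edgeR), and Dlx4, Pax9 and Msx2 had 0.159, 0.116 and 0.162. With the Y-linked level all 4 kept one (Dlx1 0.000285, Dlx4 0.000667, Pax9 8.9e-05 and Msx2 0.00678, edgeR). In that fit Barx1 had 0.000781. The share of all tested genes under 0.05 was not counted for either covariate. The groups did not overlap for 5 of 10 (Dlx1, Dlx4, Dlx6, Pax9 and Msx2), against 15.5% of all genes (7.86% higher, 7.68% lower). The median log2 fold change was 0.07 over the 10 genes and -0.00 over all tested genes.

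**Figure D2:**
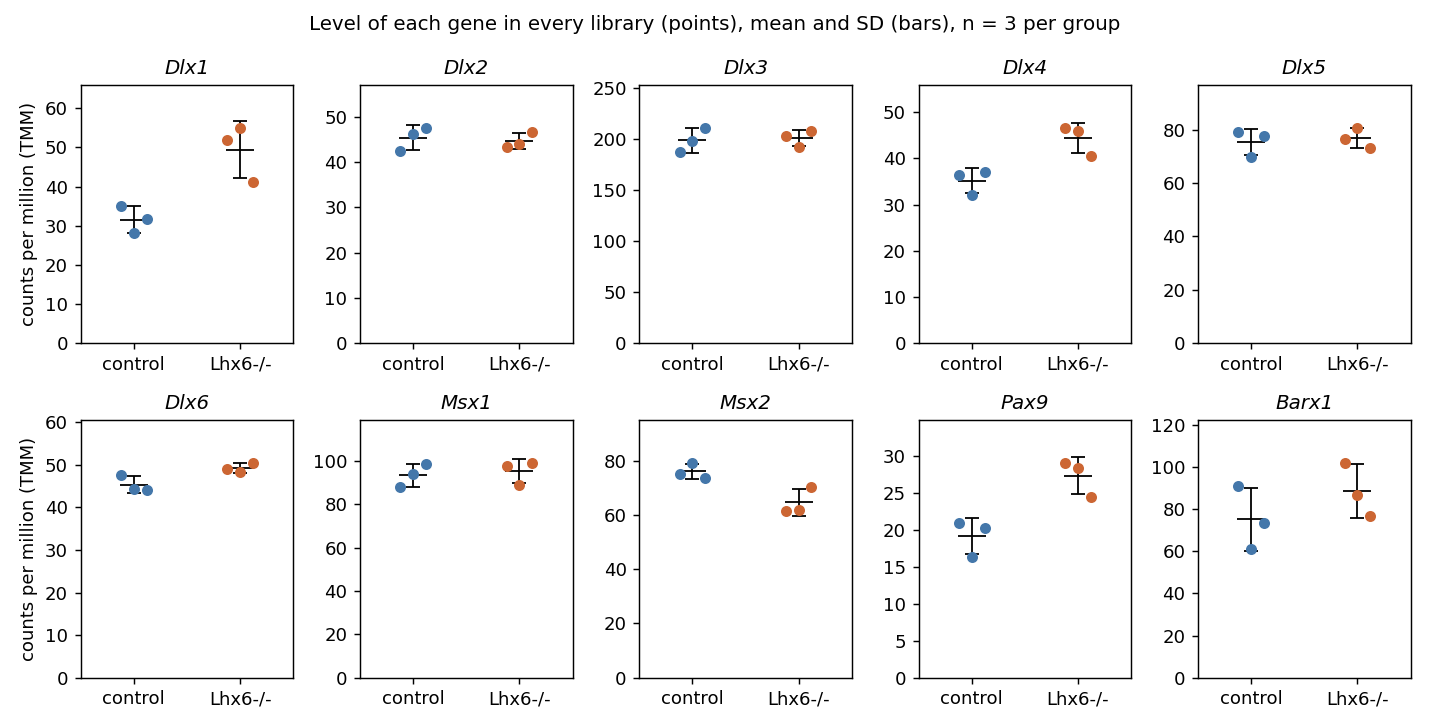
Level of each gene in CPM after TMM scaling, on a linear axis from 0. Points are libraries, bars the mean and SD of 3 libraries per group. Dlx1, Dlx4, Dlx6 and Pax9 lay higher, and Msx2 lower, in all 3 Lhx6-/- libraries than in any control library.

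Dlx1 and Dlx2 form the linked pair on chromosome 2, and in the first pharyngeal arch they are expressed together along the proximal-distal axis. Together they are needed for upper molars. Dlx1 lies on chr2:71528113-71533981 of mm10, on the plus strand. It stood at 34.9, 28 and 31.7 CPM in control replicates 1, 2 and 3 and at 52, 55 and 41.2 CPM in Lhx6-/- replicates 1, 2 and 3. Every Lhx6-/- library was above every control library, with replicate 3 the nearest to control. The means were 31.5 ± 3.44 and 49.4 ± 7.24 CPM (SD, n = 3), a log2 fold change of 0.65 (standard error 0.12), or 1.57-fold with a 95% interval of 1.31 to 1.87. In edgeR the unadjusted p was 0.000148, and 0.0413 after Benjamini-Hochberg correction. In 17 alternative fits the unadjusted p stayed under 0.05 in all 17, but the adjusted p exceeded 0.05 in 9, with a range of 6.23e-05 to 0.466 over the fits; the log2 fold change ran from 0.43 to 0.88. Without control replicate 2 or Lhx6-/- replicate 2 it was 0.57 and 0.56, just under the 1.5-fold minimum, and without control replicate 3 or Lhx6-/- replicate 1 the adjusted p was 0.237 and 0.2 (edgeR). The lowest value came with the dental epithelium level as a covariate (0.43, adjusted p = 0.466 from edgeR) and the highest with the Y-linked level (0.88, adjusted p = 0.0286 from edgeR).

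Dlx2, on chr2:71543408-71546754 on the minus strand and ending 9.427 kb from Dlx1, gave no such difference. Its level was 42.4, 46.3 and 47.6 CPM in the control replicates and 43.4, 44.1 and 46.7 CPM in the Lhx6-/- replicates. The Lhx6-/- values lay wholly inside the control range. The means were 45.4 ± 2.71 and 44.7 ± 1.75 CPM (SD, n = 3), a log2 fold change of -0.02 with a 95% interval of -0.18 to 0.14 (adjusted p = 0.967 from edgeR with Benjamini-Hochberg adjustment). Within each library, the ratio of Dlx1 to Dlx2 per kb of exon was 0.436, 0.321 and 0.352 in control and 0.634, 0.659 and 0.467 in Lhx6-/- replicates. The groups did not overlap, and the mean log2 ratio was -1.45 ± 0.23 in control and -0.79 ± 0.27 in Lhx6-/- libraries (SD, n = 3). The difference of 0.66 (standard error 0.20) gave p = 0.1 in an exact two-sided permutation test, the smallest that 3 against 3 libraries allow, and 0.133 after adjustment over the 4 gene pairs tested. Such a ratio does not depend on how the libraries are scaled.

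Dlx3 and Dlx4 are the pair on chromosome 11. Dlx3, which in humans is mutated in tricho-dento-osseous syndrome, lies on chr11:95120119-95125296 on the plus strand. It stood at 187, 198 and 211 CPM in control and 203, 192 and 208 CPM in Lhx6-/- replicates. These ranges overlapped. The log2 fold change was 0.01, with a 95% interval of -0.14 to 0.17. Dlx4, on chr11:95140447-95146263 on the minus strand, stood at 36.4, 32.1 and 37.1 CPM in control and at 46.6, 45.9 and 40.6 CPM in Lhx6-/- replicates. All Lhx6-/- libraries were above all control libraries, again with replicate 3 the nearest. The means were 35.2 ± 2.72 and 44.4 ± 3.3 CPM (SD, n = 3), a log2 fold change of 0.34 (standard error 0.09), or 1.26-fold with a 95% interval of 1.11 to 1.44. The unadjusted p was 0.0022 and the adjusted p 0.18 (edgeR, Benjamini-Hochberg), and the adjusted p was over 0.05 in 16 of 17 alternative fits (0.043 to 0.758). With the dental epithelium level as a covariate the log2 fold change of Dlx4 was 0.17, and with the Y-linked level 0.52 (adjusted p = 0.043, edgeR).

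The ratio of Dlx3 to Dlx4 per kb of exon was 6.45, 7.75 and 7.12 in control and 5.45, 5.25 and 6.41 in Lhx6-/- replicates. No Lhx6-/- library reached the control range. The mean log2 ratio was 2.83 ± 0.13 in control and 2.51 ± 0.15 in Lhx6-/- libraries (SD, n = 3), a difference of -0.32 (standard error 0.12; p = 0.1 in the exact two-sided permutation test, the smallest possible, adjusted 0.133).

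Dlx5 and Dlx6, the pair on chromosome 6, specify lower jaw identity downstream of endothelin signalling. Dlx5, on chr6:6877805-6882085 on the minus strand, stood at 79, 69.8 and 77.7 CPM in control and 76.6, 80.7 and 73.3 CPM in Lhx6-/- replicates. The groups overlapped, with a log2 fold change of 0.03 and a 95% interval of -0.13 to 0.18. Dlx6, on chr6:6863334-6868568 on the plus strand, stood at 47.6, 44.3 and 44 CPM in control and 48.9, 48.4 and 50.5 CPM in Lhx6-/- replicates. The Lhx6-/- libraries were above the control libraries without overlap, by a small margin. Its log2 fold change was 0.12 (standard error 0.07), with a 95% interval of -0.03 to 0.27 and an adjusted p of 0.642 (edgeR, Benjamini-Hochberg). The ratio of Dlx5 to Dlx6 per kb was 1.74, 1.65 and 1.85 in control and 1.64, 1.75 and 1.52 in Lhx6-/- replicates. These ranges overlapped (difference in mean log2 ratio -0.10, standard error 0.07; p = 0.3 in the exact two-sided permutation test).

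Seen as shares of the summed Dlx level per kb of exon, the makeup of the 6 Dlx transcripts differed in its minor members. Dlx1 made up 3.63 ± 0.389% of the sum in control and 5.38 ± 0.786% in Lhx6-/- libraries (SD, n = 3), and Dlx4 6.67 ± 0.377% and 7.98 ± 0.575%. Neither share overlapped between the groups. The shares are made from the same levels, in which both genes already did not overlap, and were not tested. Dlx3 took 47.3% and 45.3%, Dlx5 20.7% and 20%, Dlx6 11.8% and 12.2% and Dlx2 9.86% and 9.21% of the sum in control and Lhx6-/- libraries, and each of these shares overlapped. The sum itself was 157 to 168 CPM per kb in control and 169 to 171 CPM per kb in Lhx6-/- libraries.

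**Figure D3:**
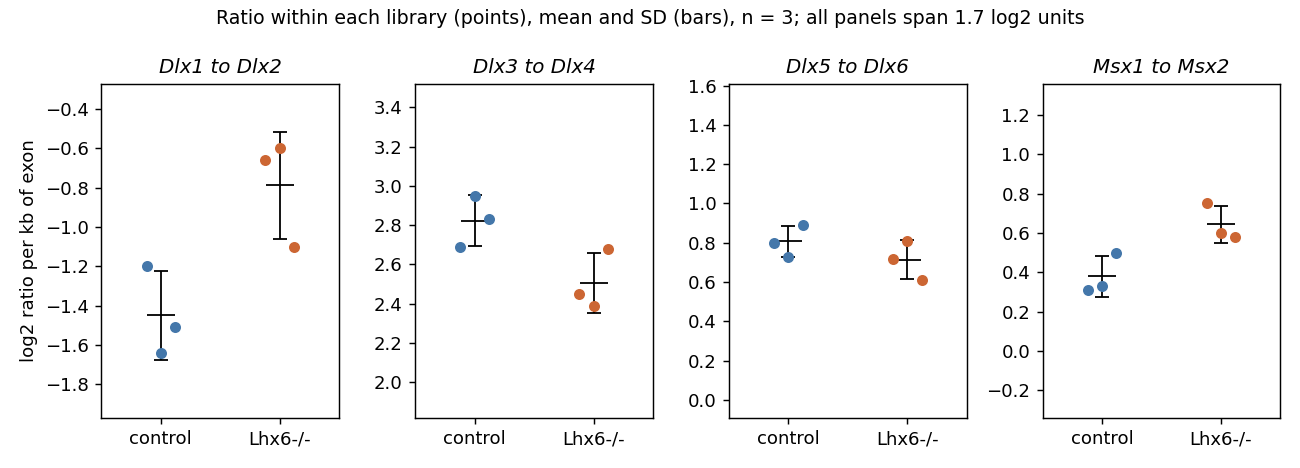
Log2 ratio of the members of each gene pair per kb of exon. Points are libraries, bars the mean and SD of 3 libraries per group, and every panel spans the same height. The groups did not overlap for Dlx1 to Dlx2, Dlx3 to Dlx4 and Msx1 to Msx2, and did for Dlx5 to Dlx6.

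Msx1 and Msx2 are paralogs on different chromosomes that respond to BMP signals. Msx1, whose loss stops molars at the bud stage, lies on chr5:37820485-37824583 on the minus strand. It stood at 87.9, 93.8 and 98.5 CPM in control and 97.4, 88.8 and 99.1 CPM in Lhx6-/- replicates. The groups overlapped, and the log2 fold change was 0.03 with a 95% interval of -0.13 to 0.18. Msx2, on chr13:53466884-53473074 on the minus strand, is also needed in dental epithelium for enamel and molar root form. It stood at 75.2, 79.2 and 73.7 CPM in control and 61.4, 61.9 and 70.4 CPM in Lhx6-/- replicates. Every Lhx6-/- library was below every control library. The means were 76 ± 2.84 and 64.5 ± 5.04 CPM (SD, n = 3), a log2 fold change of -0.24 (standard error 0.07), so that the Lhx6-/- level was 84.9% of control. The unadjusted p was 0.00798 and the adjusted p 0.284 (edgeR, Benjamini-Hochberg), and the adjusted p was over 0.05 in all 17 alternative fits (0.122 to 0.759). Beside Msx2, the dental epithelium markers Krt5, at 571 ± 152 and 346 ± 30.8 CPM, and Krt14, at 362 ± 75.8 and 237 ± 17.7 CPM (SD, n = 3), were also below control in every Lhx6-/- library. Of the 12 markers of that list 7 did not overlap, while Perp, at 190 ± 50.6 and 157 ± 21.3 CPM, did. With the epithelial level as a covariate the log2 fold change of Msx2 was -0.15, and with the Y-linked level -0.34.

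The ratio of Msx1 to Msx2 per kb of exon was 1.24, 1.25 and 1.42 in control and 1.68, 1.52 and 1.49 in Lhx6-/- replicates. The groups did not overlap. The mean log2 ratio was 0.38 ± 0.11 and 0.64 ± 0.09 (SD, n = 3), a difference of 0.26 (standard error 0.08; p = 0.1 in the exact two-sided permutation test, the smallest possible, adjusted 0.133).

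Pax9, on chr12:56691767-56712822 on the plus strand, stood at 21, 16.4 and 20.2 CPM in control and 29.1, 28.4 and 24.5 CPM in Lhx6-/- replicates. The groups did not overlap, and Lhx6-/- replicate 3 was again the nearest to control. The means were 19.2 ± 2.48 and 27.3 ± 2.5 CPM (SD, n = 3), a log2 fold change of 0.51 (standard error 0.11), or 1.42-fold with a 95% interval of 1.2 to 1.68, just short of the 1.5-fold minimum. The unadjusted p was 0.000648 and the adjusted p 0.102 (edgeR, Benjamini-Hochberg). The adjusted p was over 0.05 in 15 of 17 alternative fits (0.00746 to 0.705). With the dental epithelium level as a covariate the log2 fold change was 0.23, and with the Y-linked level it was 0.81.

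Barx1, on chr13:48662998-48666507 on the plus strand, had the widest relative spread of the 10 transcripts among the control libraries. It stood at 90.9, 60.9 and 73.5 CPM in control and 102, 86.8 and 76.8 CPM in Lhx6-/- replicates. The ranges overlapped. The log2 fold change was 0.24 (standard error 0.16), with a 95% interval of -0.12 to 0.60 and an adjusted p of 0.712 (edgeR, Benjamini-Hochberg). With the dental epithelium level as a covariate its value was -0.18, and with the Y-linked level 0.68 (adjusted p = 0.0466 from edgeR).

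Dlx1, Dlx4, Dlx5, Pax9 and Barx1 were each lowest among the control libraries in replicate 2, the library with the highest summed dental epithelium level, 2218 CPM against 1396 and 1526 CPM in replicates 1 and 3. The same 5 genes were each lowest among the Lhx6-/- libraries in replicate 3, where the epithelial sum was 1191 CPM against 1017 and 1111 CPM in replicates 1 and 2. Msx2 was highest of its group in both of these libraries. The other genes did not share this order. Dlx2, Dlx3 and Msx1 were lowest in control replicate 1, and Dlx6 in control replicate 3. In the Lhx6-/- group Dlx3, Dlx6 and Msx1 were lowest in replicate 2, and Dlx2 in replicate 1. Other sums also set these 2 libraries apart. Nerve and glia (416 and 395 CPM) and muscle sums (1163 and 1487 CPM) were highest of their group in both. Control replicate 2 also had the highest Y-linked sum (58 CPM against 17.4 and 14.6) and the lowest dental mesenchyme sum (66136 CPM against 86631 and 79160). Lhx6-/- replicate 3 was at neither extreme of its group (88.5 and 82783 CPM). How many of all tested genes share the order of the 5 genes was not counted, and its cause was not tested.

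The intervals of the edgeR fit by genotype alone give the size of change that this fit allows for each gene. For Dlx2, Dlx3, Dlx5, Dlx6 and Msx1 the 95% interval lay wholly within a 1.3-fold change in either direction, and for 7 of the 10 genes, these 5 with Dlx4 and Msx2, within 1.5-fold. Dlx1, Pax9 and Barx1 were the genes whose intervals reached past 1.5-fold. Other settings move these values: Dlx4 was 1.44-fold with the Y-linked covariate (log2 fold change 0.52, standard error 0.12).

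**Figure D4:**
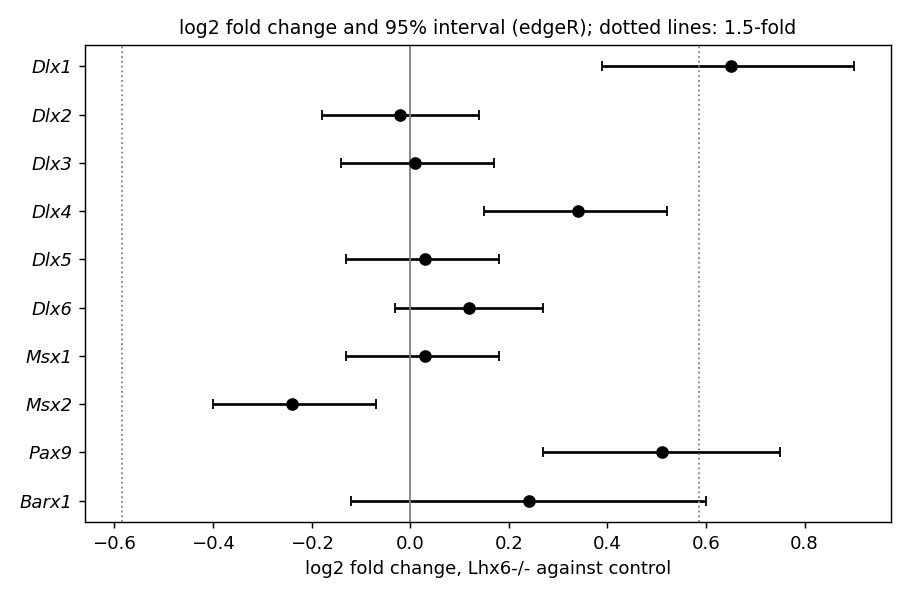
Log2 fold change of each gene in Lhx6-/- against control libraries (points) with the 95% interval from the edgeR fit (bars), n = 3 per group. The grey line marks no change and the dotted lines 1.5-fold; the Dlx1 value of 0.65 is the only one beyond them.

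**Figure D5:**
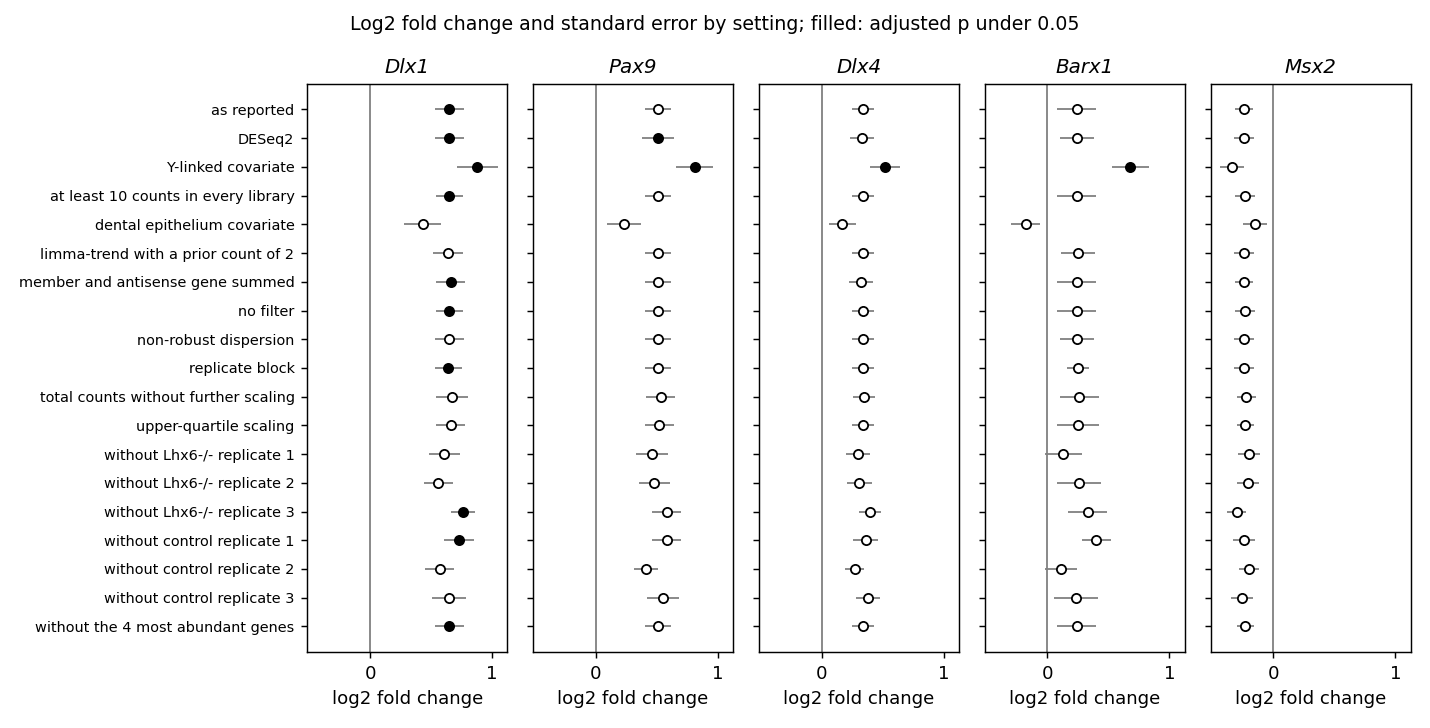
Log2 fold change (points) and standard error (bars) of Dlx1, Pax9, Dlx4, Barx1 and Msx2 as reported, in 17 alternative fits and in 1 added fit. Filled points have an adjusted p under 0.05; the epithelial and Y-linked covariates moved the values most, to 0.43 and 0.88 for Dlx1.

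Antisense and overlapping genes bear on how reads of 4 of the 10 genes are assigned, since the sources used here do not say whether strand was used in counting. Dlx1as, the antisense gene at Dlx1, shares 335 exon bases (6.208%) with it and was at 0.636 ± 0.365 and 1.59 ± 1.03 CPM (SD, n = 3), far below Dlx1. Dlx4os, at 24.9 ± 3.26 and 30.6 ± 5.99 CPM, was closer to the level of Dlx4 but shares only 79 exon bases with it. Counting each gene together with its antisense partner, a fit chosen after seeing the data, gave log2 fold changes of 0.66 for Dlx1 (adjusted p = 0.04 from edgeR), 0.32 for Dlx4 and 0.51 for Pax9. Dlx6 moved the most in that fit, from 0.12 to 0.19, and its unadjusted p from 0.11 to 0.0164 (adjusted 0.357, edgeR). Most of the counts added to Dlx6 were those of Dlx6os1, at 15.6 ± 2.16 and 19.4 ± 3.42 CPM (SD, n = 3), which shares 0 exon bases with it. Dlx6os2, also added, shares 104 and was at 1.49 ± 0.466 and 2.34 ± 0.374 CPM. Pax9 was summed with Gm15524, which shares 0 exon bases, and not with Slc25a21, which shares 189. Among the members themselves the longest identical run of transcript sequence was 44 bases, between Dlx6 and Msx2, shorter than the 75-base reads. Of all 75-base words of Dlx1 transcripts, 4.68% also occur in another gene, all in Dlx1as, and 6 of the 10 genes share none.

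Genes beside the members were compared to see whether the flanking region moved with them. Of 12 other tested genes within 100 kb, 0 had an unadjusted p under 0.05 in edgeR, against 9.81% of all tested genes. So few genes cannot show whether the flanking region moved. Their median log2 fold change was 0.10. Metap1d, 2.919 kb from Dlx1, was at 53.9 ± 5.3 and 58.2 ± 9.3 CPM (SD, n = 3), a log2 fold change of 0.11 with a 95% interval of -0.15 to 0.36. Of the 6 genes that overlap a member, 3 (Dlx1as, Dlx6os1 and Dlx6os2) had an unadjusted p under 0.05 from edgeR and 0 an adjusted one.

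RefSeq promoter sequences on GRCm38.p6 were at hand for 6 of the 10 genes (Dlx1, Dlx2, Msx1, Msx2, Pax9 and Barx1) and were searched for TAATTA, the core that LIM homeodomain, Dlx and Msx proteins bind, and for TAATTG, on both strands, in the 250 bases before the RefSeq start. Of 32817 such windows, 4.85% hold TAATTA, 7.17% TAATTG and 11.3% either. Of the 6 windows, 3 overlap an annotated exon of their own gene (Dlx1, Msx2 and Barx1). The Dlx1 window, chr2:71529195-71529444, lies inside the annotated gene and not upstream of it. Only the Msx2 window holds either core, with TAATTA starting 187 bases before the RefSeq start. That stretch, chr13:53472950-53472979 on the minus strand, lies in the first exon of Msx2 as annotated in GENCODE. It is shown, core in capitals, with the windows of its paralog Msx1 (chr5:37824586-37824835, minus strand) and of Pax9 (chr12:56695221-56695470, plus strand, in an intron of 1 annotated transcript), which hold neither core.
Msx2: tgactgctcctgTAATTAactcctaattta
Msx1: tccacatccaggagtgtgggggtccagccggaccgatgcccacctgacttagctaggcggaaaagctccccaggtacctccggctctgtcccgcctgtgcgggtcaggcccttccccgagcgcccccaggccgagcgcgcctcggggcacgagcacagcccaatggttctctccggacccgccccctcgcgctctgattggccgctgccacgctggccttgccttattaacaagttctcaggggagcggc
Pax9: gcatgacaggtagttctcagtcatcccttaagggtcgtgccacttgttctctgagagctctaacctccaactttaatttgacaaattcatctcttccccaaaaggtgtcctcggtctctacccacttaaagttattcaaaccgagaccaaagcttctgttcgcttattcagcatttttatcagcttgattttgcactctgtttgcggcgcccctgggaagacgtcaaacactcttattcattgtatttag
The Msx1 window is 68% G and C and the Pax9 window 43.6%, against a median of 52.4% over all windows. A match or its lack is a description of these letters, and nothing follows from it about binding.

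The wider tooth network was read from lists of 41 other transcription factors and 21 signals. Of 39 tested factors, 29 were on the higher and 10 on the lower side, with a median log2 fold change of 0.12 against -0.00 over all tested genes. By the fold and p rule 1 rose (Osr2), while the targeted Lhx6 fell, against 1.58% of all tested genes higher and 1.71% lower. Osr2, an odd-skipped factor that restrains tooth formation on the lingual side of the molar field, stood at 18.6, 16.8 and 17.1 CPM in control and 38.6, 34.8 and 28.8 CPM in Lhx6-/- replicates. The groups were well apart, and the log2 fold change, 0.96 ± 0.11 (standard error), had an adjusted p of 0.00484 in edgeR and was larger in size than that of any of the 10 genes.

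Of 19 tested signals, 11 had a higher and 8 a lower mean (median log2 fold change 0.06). By the rule 2 rose (Bmp2 and Edn1) and 2 fell (Fgf9 and Edar), against 1.58% and 1.71% of all tested genes. Bmp2, a ligand made by odontoblasts and able to induce Msx and Dlx genes, stood at 23.8, 26.8 and 20.1 CPM in control and 41.1, 37.8 and 41.1 CPM in Lhx6-/- replicates. No value overlapped, and the log2 fold change was 0.76 ± 0.10 (standard error), at an adjusted p of 0.00879 in edgeR. Edn1, the endothelin that acts upstream of Dlx5 and Dlx6 in the jaw, was at 1.12 ± 0.0681 and 1.85 ± 0.179 CPM (SD, n = 3; adjusted p = 0.386, edgeR). Fgf9, an epithelial ligand, had a log2 fold change of -0.67, and Edar, the epithelial ectodysplasin receptor, one of -0.70, with adjusted p-values of 0.402 and 0.337 (edgeR).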

How the data were processed

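RNA of laser-captured apical furcation tissue was sequenced as single-end reads on an Illumina NextSeq instrument, and per the labels the reads were aligned with STAR 2.6.1d to mm10 and handled in Partek. The deposited values are estimated counts per gene, without normalization; the counting method and the use of strand are not given in the sources used here. A second table of the authors holds gene names with their coordinates and their own comparison (ratios, fold changes, p-values), of which the comparison columns were not used. A summed signal per gene that the authors deposited there, 1 + scaled counts added over the 6 libraries, served only to check that both tables list genes in the same order, and 23055 of 23594 genes were matched to GENCODE vM21 by name and position.

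Estimated counts were rounded and fitted by genotype with edgeR 4.0.16 (R 4.3.3): TMM, expression filter, robust quasi-likelihood test, two-sided, Benjamini-Hochberg adjustment over 20114 genes. Genes met the rule at a fold of at least 1.5 and an unadjusted p under 0.05, as in the study's methods. Standard errors were taken from each F statistic and its log2 fold change, and intervals are 95%. Levels per kb use the union of annotated exons. Ratios within libraries were compared by exact two-sided permutation. All 10 genes and Lhx6 are named, with listed factors and signals that met the rule, overlapping and nearest genes, and the most abundant markers. The result of 1 listed factor is not reported here. The genes and lists were chosen with earlier results of these data known. The code was tested on simulated data.

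The alternatives were DESeq2 1.42.0, limma-trend (limma 3.58.1, prior count 2), other scalings, filters and thresholds, epithelial and Y-linked covariates, a replicate block and each library left out. At these depths, with 3 libraries per group, the spread among them and not counting error set the precision.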

Additional observations from a re-analysis of the deposited data

How the results depend on the processing

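Dlx1, Dlx4, Dlx6, Pax9 and Msx2 kept their direction in all 17 alternative fits, and the ratios of the 4 pairs kept theirs under each alternative run. By fold and p, 660 genes met the rule, with 1974 without a fold minimum, 350 at 2-fold and 1241 under the Y-linked covariate. Of the 10 factors 1 met it, against 4 without a fold minimum, 0 at 2-fold, 3 with the Y-linked and 0 with the epithelial covariate, and 0 to 1 with a library left out (0 without control replicate 2 or Lhx6-/- replicate 2). Adjusted p-values passed for 81 genes, 315 by DESeq2, 359 with the Y-linked and 12 with the epithelial covariate, and 12 (without control replicate 3) to 127 (without control replicate 1) with a library left out, with 31 without Lhx6-/- replicate 1 and 20 without Lhx6-/- replicate 2. Of the 10 factors they passed for 1, for 2 by DESeq2 (Dlx1 and Pax9), for 4 with the Y-linked covariate, for 0 with the epithelial covariate, limma-trend, non-robust dispersion, total-count or upper-quartile scaling, and for 0 to 1 with a library left out. Without Lhx6-/- replicates 1 or 2 or control replicates 2 or 3, the adjusted p of Dlx1 was 0.2, 0.201, 0.0841 and 0.237 in edgeR, while its log2 fold change was 0.61, 0.56, 0.57 and 0.65. Signs of small values turned: Barx1 was -0.18, Dlx2 0.05 and Dlx5 -0.09 with the epithelial covariate, and with a library left out Dlx2 ran from -0.07 to 0.01, Dlx3 from -0.02 to 0.06, Dlx5 from -0.03 to 0.06 and Msx1 from -0.01 to 0.07. The cause was not tested.

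The replicate numbers of the sample titles, used here, did not pair the libraries. The deviations of same-numbered libraries correlated at 0.0256, -0.0288 and -0.0314, and no library correlated best with the one of its own number. The count table numbers the Lhx6-/- libraries 2, 3 and 4, which would give other pairs, not fitted here. A replicate block passed 134 genes at an adjusted p under 0.05 in place of 81.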
